A study of Mus musculus with 8 samples.

Results

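The expression of 59 genes of DNA replication and mitosis was followed in the glomeruli of mice that lack Cd151, a tetraspanin of the cell surface. The list holds 26 replication genes and 33 mitosis genes, taken for their function and matched to the array by gene symbol. A row was found for 50 of the 59, 24 of replication and 26 of mitosis, among 18120 symbols on the array. Cdt1, Gins1, Mki67, Aurka, Aurkb, Cenpf, Racgap1, Smc2 and Smc4 had no row under these symbols and were not analysed here. The samples were glomeruli of 8 male FVB/N mice aged 3 weeks, 4 Cd151+/+ and 4 Cd151-/-, with 1 mouse per array. The Cd151-/- mice carry a homozygous deletion of the gene and the Cd151+/+ mice of the same strain are the controls. Mice were perfused with magnetic beads, the kidneys were digested with collagenase and DNase, and the glomeruli were collected on a magnet, so that each RNA is a mixture of all cell types of the glomerulus and of any tubule that remained. The comparison asks how glomerular gene expression differs at an early stage of the disease that follows loss of Cd151 in this strain.

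A cell that divides passes through the same program in every tissue. In G1 cyclin E and its kinase free the E2F factors from the retinoblastoma protein, and E2F turns on the genes that load the MCM helicase, make nucleotides and copy DNA. Genes needed for chromosome condensation, the spindle, its checkpoint and cell separation follow in G2 and mitosis, where many are controlled through a CHR element and through CCAAT boxes bound by NF-Y. Transcripts of both waves are scarce in tissue whose cells have left the cycle. In kidneys of newborn rodents glomeruli are still being formed and enlarged, whereas mature podocytes do not normally divide.

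The promoters of the 2 subgroups differed in the motifs they hold, described here without a test. Promoter windows of 300 bases, from 250 before to 50 after a RefSeq transcript start in assembly GRCm38.p6, were found for 50 of the 59 genes, 22 of replication and 28 of mitosis. Each was searched on both strands for the E2F motifs TTCCCGC and TTGGCGC, the CHR motifs TTTGAA and TTCGAA, and the NF-Y box CCAAT. The opposite strand of TTGGCGC ends in CCAA, so it can share letters with a CCAAT box. An E2F motif was present for 59.1% of the replication genes, 21.4% of the mitosis genes and 7.79% of the 27025 genes of the promoter table. The CHR motif was present for 18.2% of the replication genes, 78.6% of the mitosis genes and 21.7% of all genes. CCAAT was present for 63.6%, 82.1% and 41.1% respectively. The mean number of windows per gene was 1.23, 1.07 and 1.22. A match says only that the letters are there.

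**Figure D1:**
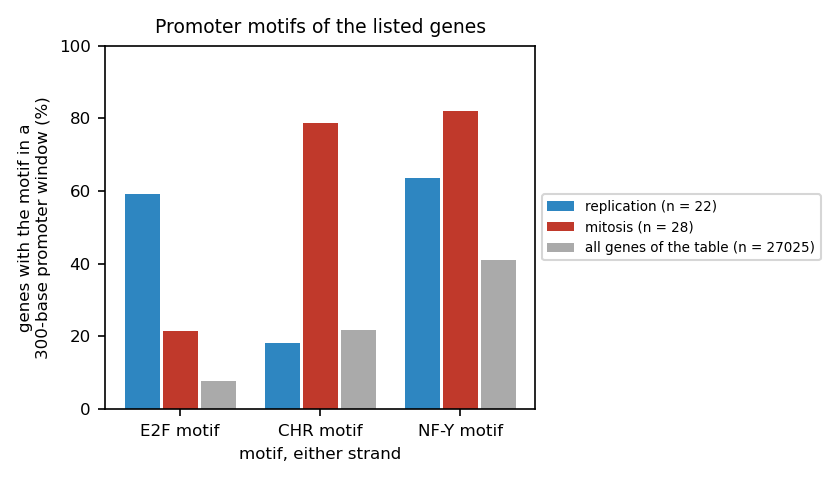
Share of genes, in percent, with each motif on either strand of a 300-base promoter window, for 22 replication genes, 28 mitosis genes and 27025 genes of the promoter table. The E2F bar is highest for replication genes (59.1%) and the CHR bar for mitosis genes (78.6%).

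The promoters of 5 members are shown, taken from the largest differences of each subgroup because they carry the motifs at different places. Other members with differences as large are not shown. In their windows Mcm10 and Rrm2 held CCAAT but no E2F motif, and Plk1 held a CHR motif and CCAAT. Tk1 and Birc5 held none of the motifs. Each line gives the 200 bases before the transcript start, 5′ to 3′ on the strand of the gene, from RefSeq and GRCm38.p6. Capitals mark the motifs on either strand, so TTCAAA is a CHR motif and ATTGG is the NF-Y box, both read from the other strand. Cdc2a, now called Cdk1, lies at chr10:69352913-69353112 on the minus strand. Kif11 lies at chr19:37376182-37376381 on the plus strand, and Bub1b at chr2:118598011-118598210 on the plus strand. Mcm6 lies at chr1:128359706-128359905 on the minus strand, and Uhrf1, for 1 of its 2 windows, at chr17:56303137-56303336 on the plus strand.
Cdc2a: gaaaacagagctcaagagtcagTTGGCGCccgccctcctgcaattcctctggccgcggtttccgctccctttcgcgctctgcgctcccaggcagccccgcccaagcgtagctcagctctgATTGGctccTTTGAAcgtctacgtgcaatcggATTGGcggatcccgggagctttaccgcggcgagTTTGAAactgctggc
Kif11: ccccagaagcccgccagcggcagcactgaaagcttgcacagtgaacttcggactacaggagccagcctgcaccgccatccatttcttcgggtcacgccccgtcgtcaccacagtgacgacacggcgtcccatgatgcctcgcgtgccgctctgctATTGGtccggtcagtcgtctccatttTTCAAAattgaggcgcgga
Bub1b: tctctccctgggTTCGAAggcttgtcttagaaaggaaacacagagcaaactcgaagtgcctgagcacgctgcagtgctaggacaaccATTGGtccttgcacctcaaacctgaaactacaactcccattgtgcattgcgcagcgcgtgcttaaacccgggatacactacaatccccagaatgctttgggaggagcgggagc
Mcm6: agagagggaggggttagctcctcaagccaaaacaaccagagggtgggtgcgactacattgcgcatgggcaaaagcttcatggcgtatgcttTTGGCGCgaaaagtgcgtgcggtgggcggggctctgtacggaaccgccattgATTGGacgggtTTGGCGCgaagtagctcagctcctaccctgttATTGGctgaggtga
Uhrf1: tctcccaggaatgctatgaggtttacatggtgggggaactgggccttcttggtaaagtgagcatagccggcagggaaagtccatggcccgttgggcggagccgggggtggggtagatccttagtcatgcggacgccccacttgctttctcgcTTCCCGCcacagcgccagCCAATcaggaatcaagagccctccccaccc
The mitosis genes Cdc2a, Kif11 and Bub1b each held a CHR motif together with a CCAAT box. In Cdc2a the CHR motifs began 71 and 15 bases before the start, and an E2F motif lay further up, at 178 bases. In Kif11 the CHR motif began 19 bases before the start, and in Bub1b 188 bases before it. Mcm6 and Uhrf1, of the replication subgroup, held E2F motifs and CCAAT boxes and no CHR motif in these 200 bases. The 2 E2F motifs of Mcm6 began 109 and 46 bases before the start, and the 1 of Uhrf1 began 48 bases before it.

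On the arrays, values are background-corrected, quantile-normalised log2 signals of the brightest tested probe of each gene. They compare mice for 1 probe and do not rank 1 gene against another. The table holds 85 probes for the 50 members. A probe was tested where it was detected, that is above the negative controls at a detection p of 0.05, on at least 1 of the 8 arrays. This left 36 members, 20 of replication and 16 of mitosis, of which 28 were detected on all 8 arrays. The other 14 were detected on no array. They were Gmnn, Pcna, Pola1 and Prim1 of replication and Bub1, Ccna2, Ccnb2, Cenpe, Ect2, Kif20a, Plk4, Tpx2, Ttk and Ube2c of mitosis.

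The arrays themselves could be divided by brightness. Their inferred background was 58.98 to 69.4 on 4 arrays (Cd151+/+ mice 1 and 2, Cd151-/- mice 3 and 4) and 124 to 135 on the other 4, and 11291 to 12359 probes were detected. Each set holds 2 mice of each genotype. The 3 probes of Cd151 were detected in all 4 Cd151+/+ mice and in none of the Cd151-/- mice. The podocyte markers Podxl, Ptpro and Wt1 were detected on all 8 arrays.

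Replication and mitosis transcripts were mostly more abundant in Cd151-/- glomeruli, but no member passed the test across all genes and 1 of the 4 Cd151-/- mice did not share the difference. Of the 36 tested members 34 had a higher mean in Cd151-/- mice, where 49.7% of the 11240 tested genes did. The 2 others were Cdc6, which helps to load the helicase, at -0.05 log2, and the helicase subunit Mcm7 at -0.01. The median log2 fold change was 1.04 for mitosis, 0.51 for replication and -0.0018 for all tested genes. A gene detected only in the genotype where it is high enters these counts and medians more easily. Ccnb1 and Ccne2 were detected in Cd151-/- mice only. Over all 50 members on the array, detected or not, 43 were higher. The medians were then 0.89 for mitosis and 0.46 for replication, beside -0.0039 for all genes on the array.

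None of the 36 passed limma's test at a Benjamini-Hochberg adjusted p of 0.05, against 0.0267% of all tested genes, and the members' adjusted p lay between 0.918 and 0.998. At an unadjusted p under 0.05, 10 members (27.8%) were higher, against 1.90% of all genes. None was lower, against 2.47%. The 10 were Mcm5, Mcm6, Mcm10, Tk1 and Uhrf1 of replication and Ccnb1, Cdc2a, Cdca5, Mad2l1 and Plk1 of mitosis. Of these, Ccnb1 entered the test only through Cd151-/- mice. Only for Mad2l1 did the groups not overlap, 1 of 36 members where 0.925% of all genes were so separated upward and 1.34% downward. In these bulk samples, a change in the number of cells of a type and a change in RNA per cell cannot be told apart.

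**Figure D2:**
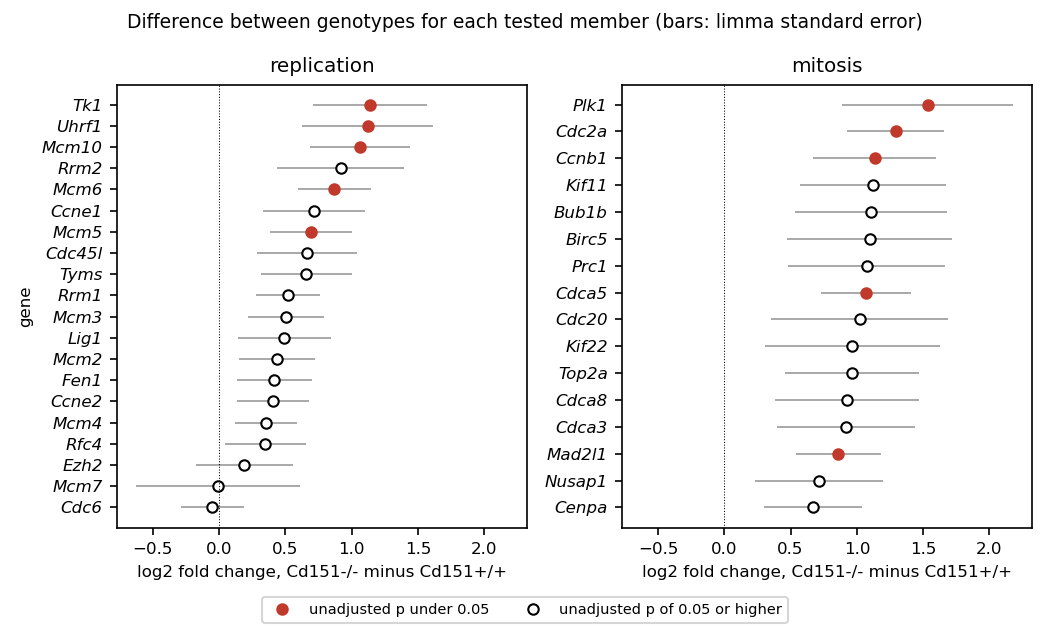
Log2 fold change, Cd151-/- minus Cd151+/+, for the 20 tested replication members and the 16 tested mitosis members, 4 mice per genotype, with bars of 1 limma standard error. All 16 mitosis members lie to the right of 0, between 0.67 and 1.53, and the filled points are the 10 members with an unadjusted p under 0.05.

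The difference was unevenly spread over the 4 Cd151-/- mice. Mouse 1 was above every Cd151+/+ mouse for 35 of the 36 members, mouse 3 for 27 and mouse 4 for 23. Mouse 2 was so for 4 members, Ccne1, Rfc4, Uhrf1 and Mad2l1. Over all tested genes the shares were 22.3%, 21.0%, 16.5% and 23.2% for mice 1 to 4, so mouse 2 did not stand apart from the others there. At least 3 Cd151-/- mice were above every Cd151+/+ mouse for 22 members (61.1%), against 5.97% of all genes. In 21 of the 22 the remaining mouse was mouse 2, a pattern that 1.73% of all genes showed and that was chosen after the values were seen.

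Mouse 2 had the lowest Cd151-/- value for 26 of the 36 members, against 23.3% of all genes. It lay below the Cd151+/+ mean for 20 members (55.6%), close to the 54.4% of all genes. The standard deviation among Cd151-/- mice was larger than among Cd151+/+ mice for 34 of 36 members, against 55.0% of all genes. For mitosis the median standard deviation was 1.17 among Cd151-/- mice and 0.65 among Cd151+/+ mice, and for all tested genes it was 0.38 and 0.36. Without Cd151-/- mouse 2, 24 members were higher at an unadjusted p under 0.05 (all genes 3.12%) and for 22 the groups did not overlap upward (all genes 2.66%), while none passed adjustment. Without Cd151-/- mouse 1 the first count was 3 (all genes 0.943%), and without Cd151+/+ mouse 1 it was also 3 (all genes 1.05%).

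**Figure D3:**
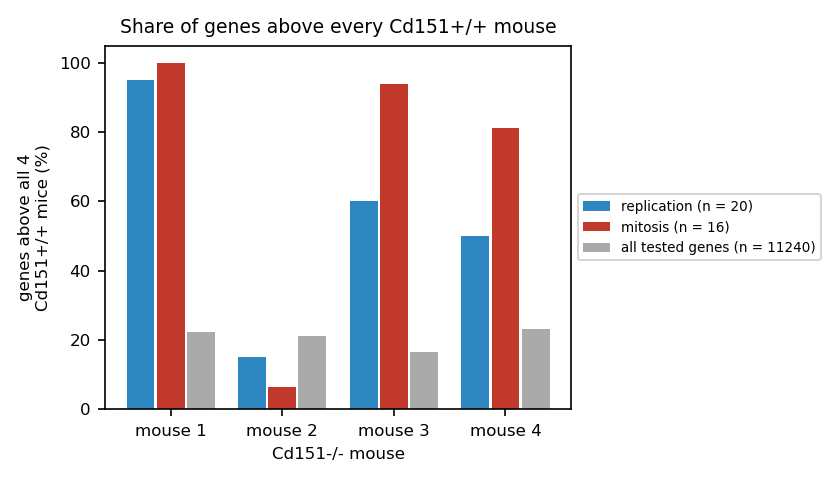
Share of genes, in percent, whose signal in the given Cd151-/- mouse was above that of all 4 Cd151+/+ mice, for 20 replication members, 16 mitosis members and 11240 tested genes. Mice 1, 3 and 4 have tall bars for both subgroups, and in mouse 2 both lie below the 21.0% of all genes.

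The mitosis members varied among the control mice too. Their median deviation from the Cd151+/+ mean was -0.22, 0.67, 0.19 and -0.62 log2 in Cd151+/+ mice 1 to 4 and 1.82, -0.55, 1.67 and 1.24 in Cd151-/- mice 1 to 4. Thus Cd151-/- mouse 2 lay within the range of the controls, and the other 3 above it. For replication the same medians were -0.25, 0.07, 0.05 and 0.09 in the controls and 1.23, 0.09, 0.56 and 0.36 in Cd151-/- mice. The controls were closer together for replication than for mitosis, and Cd151-/- mouse 2 was level with the highest of them.

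Among the replication genes, those that load and form the helicase differed in size. Mcm10, which helps to start the fork, had signals of 6.46, 7.38, 7.26 and 7.06 in Cd151+/+ mice 1 to 4 and 8.88, 7.10, 7.86 and 8.58 in Cd151-/- mice 1 to 4. The log2 fold change was 1.06 ± 0.38 (SE), and limma gave an unadjusted p of 0.0167 and an adjusted p of 0.918. Cd151-/- mouse 2 lay among the controls and the other 3 above them.

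For Mcm6, a subunit of the helicase ring, the signals were 7.72, 8.34, 7.85 and 8.29 in Cd151+/+ mice and 9.35, 8.27, 9.17 and 8.89 in Cd151-/- mice. Its log2 fold change was 0.87 ± 0.28 (unadjusted p = 0.00939, adjusted p = 0.918), with mouse 2 again the one Cd151-/- mouse inside the control range. On a further probe, which gave 0.98 (unadjusted p = 0.011), mouse 3 was inside the control range and mouse 2 above it. Mcm2, another subunit, read 8.64, 9.09, 8.39 and 9.15 against 9.51, 8.63, 9.70 and 9.17, a difference of 0.44 ± 0.28 (unadjusted p = 0.155, adjusted p = 0.918). Of the other subunits, Mcm5 differed by 0.69, Mcm3 by 0.51, Mcm4 by 0.35 and Mcm7 by -0.01. The first of these had an unadjusted p of 0.048 and the others did not reach 0.05. Cdc45l, which travels with the ring, differed by 0.66.

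Among genes of nucleotide supply, mouse 2 again lay apart from the other Cd151-/- mice for Rrm2, Tk1 and Rrm1, but not for Tyms. Rrm2, the regulatory subunit of ribonucleotide reductase that is made in S phase, read 7.24, 7.49, 7.23 and 7.66 in Cd151+/+ mice and 9.17, 6.61, 8.50 and 9.0 in Cd151-/- mice. Mouse 2 had the lowest value of all 8 mice here, and the other Cd151-/- mice had the 3 highest. The log2 fold change of 0.92 ± 0.48 had an unadjusted p of 0.0812 (adjusted p = 0.918), and a further probe gave 1.04 (unadjusted p = 0.070).

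Tk1, thymidine kinase, read 8.53, 9.40, 8.62 and 8.83 against 10.74, 8.56, 10.13 and 10.50. This was the largest difference of the replication subgroup at 1.14 ± 0.43 (unadjusted p = 0.0229, adjusted p = 0.918). Cd151-/- mice 1, 3 and 4 were above every control and mouse 2 was near the lowest. A second Tk1 probe gave 0.92 with an unadjusted p of 0.0084. Rrm1, the constant subunit of the reductase, differed by 0.52 and Tyms, thymidylate synthase, by 0.66, both with an unadjusted p over 0.05. Tyms read 9.68, 8.49, 8.37 and 8.58 in Cd151-/- mice 1 to 4, with mouse 1 apart.

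Uhrf1, which guides DNA methylation to newly copied strands, departed from this order. Its signals were 5.75, 5.96, 6.72 and 7.08 in Cd151+/+ mice and 8.97, 7.63, 6.64 and 6.74 in Cd151-/- mice. Here mouse 2 was above every control and mice 3 and 4 were not. The log2 fold change was 1.12 ± 0.50 (unadjusted p = 0.0457, adjusted p = 0.918). In both genotypes the arrays of higher background had the higher Uhrf1 signals, and the difference was 0.84 within the arrays of lower background and 1.40 within the others. The part of background in this result was not tested. The value was 0.63 without Cd151-/- mouse 1, 0.71 without normexp and 2.07 with array weights.

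The remaining replication genes were the following. Ccne1 differed by 0.71, Lig1, the ligase that joins Okazaki fragments, by 0.49, Fen1, the flap nuclease, by 0.42, Rfc4, of the clamp loader, by 0.35 and the histone methyltransferase Ezh2 by 0.19. None of these reached an unadjusted p of 0.05 on the brightest probe. Another Lig1 probe gave 1.00 with an unadjusted p of 0.049, and another Rfc4 probe, detected on 1 array, gave -0.24. Ccne2 was detected on 1 array, as was Cdc6, and no lower limit on a fold could be set for them. Pcna, the sliding clamp, was detected on no array, with signals of 4.41 to 4.66 in Cd151+/+ mice and 4.58 to 4.77 in Cd151-/- mice, so this probe gives no level for it.

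Among the mitosis genes are the kinases that drive cell division and the cyclin that activates one of them. Plk1, the polo-like kinase of spindle assembly and mitotic exit, read 6.26, 7.36, 8.09 and 6.04 in Cd151+/+ mice and 9.77, 6.55, 8.88 and 8.68 in Cd151-/- mice. The log2 fold change of 1.53 ± 0.65 (unadjusted p = 0.0368, adjusted p = 0.918) was the largest of all members. The control mice themselves spread over more than 2 log2 units.

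Cdc2a, the kinase that drives entry into mitosis, read 7.40, 7.93, 7.19 and 7.01 against 9.58, 7.72, 8.70 and 8.70. Its difference of 1.29 ± 0.37 had the lowest unadjusted p of the members, 0.00466, and an adjusted p of 0.918. Only the highest control, mouse 2, overlapped with the lowest Cd151-/- mouse. Ccnb1, the cyclin B that activates this kinase, was detected in none of the Cd151+/+ mice and in 3 of the Cd151-/- mice. Its signals were 4.61, 5.20, 4.77 and 4.60 against 7.14, 4.58, 5.53 and 6.49. Taking the lowest detected signal of each control array as the limit, its mean was at least 1.47-fold higher in Cd151-/- mice. The difference of 1.14, which includes the undetected signals, had an unadjusted p of 0.0325 (adjusted p = 0.918). A second Ccnb1 probe was detected on 1 array and gave 0.28. With Ccnb1 at this limit, the median over the 16 tested mitosis members was 0.99.

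Mouse 2 was low for spindle and checkpoint genes as well, with 1 exception among those named. Kif11, the motor that pushes the spindle poles apart, read 6.64, 7.58, 6.31 and 6.09 in Cd151+/+ mice and 8.42, 5.93, 8.52 and 8.24 in Cd151-/- mice, a difference of 1.12 ± 0.55 (unadjusted p = 0.0662, adjusted p = 0.918). Mouse 2 was the lowest of the 8 and the other Cd151-/- mice the 3 highest. Bub1b, of the spindle checkpoint, read 5.62, 7.39, 6.13 and 5.31 against 7.85, 5.62, 8.25 and 7.16, a difference of 1.11 ± 0.58 (unadjusted p = 0.0808, adjusted p = 0.918). There control mouse 2 exceeded Cd151-/- mouse 4.

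Mad2l1, which holds the checkpoint in force until chromosomes are attached, was the exception. It read 7.15, 7.92, 8.12 and 7.72 in Cd151+/+ mice and 9.40, 8.17, 8.16 and 8.62 in Cd151-/- mice, and all 4 Cd151-/- mice were above all controls. The difference was 0.86 ± 0.32 (unadjusted p = 0.0216, adjusted p = 0.918). The exact two-sided permutation p was 0.0286, the smallest that 4 mice against 4 can give. Any gene whose groups do not overlap has this permutation p. Mad2l1 was named for that separation, so the permutation p adds no support. The gap between the groups was small beside the range within each. Cdc20, which releases the checkpoint by turning on the anaphase-promoting complex, read 8.76, 9.81, 9.48 and 8.03 against 10.95, 7.73, 10.85 and 10.62. Its difference was 1.02 ± 0.67 (unadjusted p = 0.156, adjusted p = 0.918), with mouse 2 the lowest of all 8 mice. Its 3 other tested probes gave 0.81 to 1.00, of which 1 had a lower unadjusted p, 0.127.

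The other mitosis members serve the chromosomes and cell separation. Top2a, which untangles sister chromatids, read 6.61, 7.97, 7.25 and 6.58 in Cd151+/+ mice and 8.84, 6.51, 8.79 and 8.14 in Cd151-/- mice, a difference of 0.97 ± 0.50 (unadjusted p = 0.0822, adjusted p = 0.918). Birc5, survivin of the chromosomal passenger complex, read 8.72, 9.74, 9.07 and 7.85 against 10.57, 7.88, 10.92 and 10.40, a difference of 1.1 ± 0.62 (unadjusted p = 0.105, adjusted p = 0.918). In both genes 3 Cd151-/- mice were above every control and mouse 2 was at the low end of the controls. Cdca5, sororin, which guards sister chromatid cohesion, differed by 1.07 (unadjusted p = 0.00954, adjusted p = 0.918). Prc1 of the midzone differed by 1.08, the motor Kif22 by 0.97, the passenger subunit Cdca8 by 0.93, Cdca3 by 0.92, Nusap1 by 0.71 and the centromeric histone Cenpa by 0.67. None of these last 6 reached an unadjusted p of 0.05, although a second Nusap1 probe, detected on 1 array, gave 0.46 with a lower p of 0.060.

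**Figure D4:**
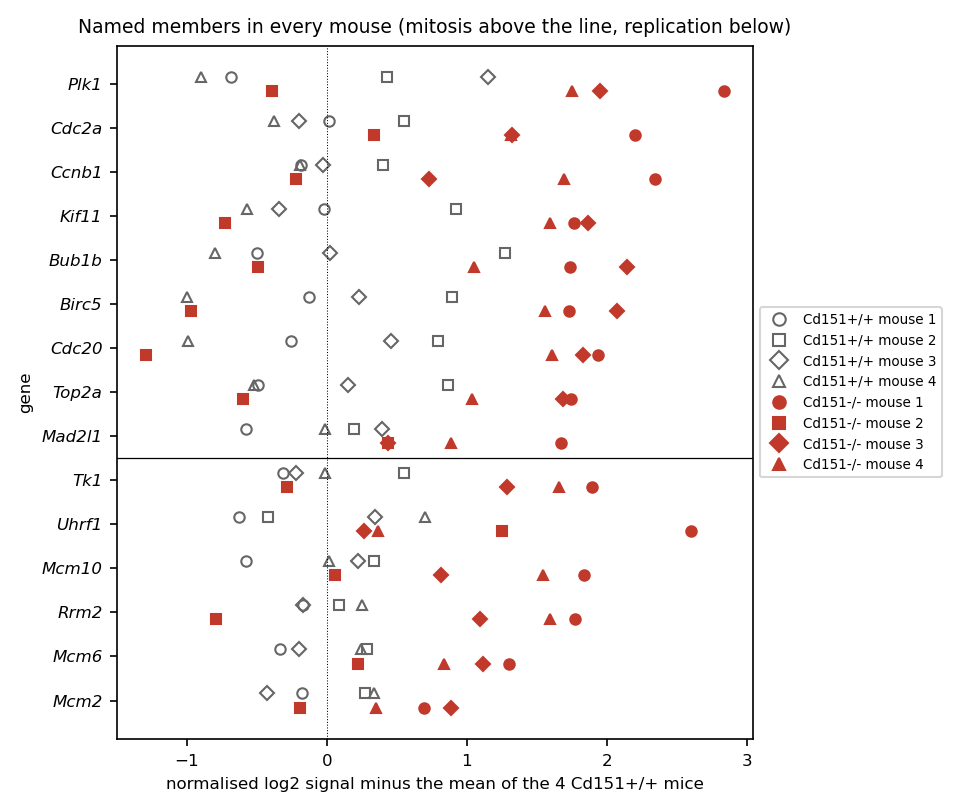
Normalised log2 signal of each mouse minus the mean of the 4 Cd151+/+ mice, for 9 mitosis members and 6 replication members, with open grey symbols for Cd151+/+ and filled red symbols for Cd151-/- mice. The filled square, Cd151-/- mouse 2, falls among the open symbols or below them for every gene drawn except Mad2l1 and Uhrf1.

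Within each set of arrays of like background, both with 2 mice per genotype, the differences kept their sign for the 15 named members that were tested. Plk1 differed by 1.97 within the arrays of lower background and by 1.1 within the others, and Cdc2a by 1.03 and 1.55. The set of higher background holds Cd151-/- mice 1 and 2, the highest and the lowest of the genotype for most members. With the set as a block, 14 members were higher at an unadjusted p under 0.05, against 5.21% of all genes.

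Further genes of the same pathways, listed by function, also had medians above 0. Of 29 tested further replication genes 22 were higher, against 49.7% of all tested genes. The median of the 29 was 0.34 (0.27 over all 34 on the array, 0.21 without Cd151-/- mouse 1). At an unadjusted p under 0.05, 2 of the 29 (6.9%) were higher, against 1.90% of all genes. These were Chaf1b, of the complex that sets histones on new DNA, at 0.73 and Dbf4, the activator of the kinase that fires origins, at 0.82. Of 21 tested further mitosis genes 18 were higher, against 49.7% of all tested genes, and the median of the 21 was 0.49. Over all 33 on the array the median was 0.17, and over the tested genes it was 0.34 when Cd151-/- mouse 1 was left out, 0.91 when mouse 2 of that genotype was, and 0.78 without control mouse 2. At an unadjusted p under 0.05, 3 of the 21 (14.3%) were higher, against 1.90% of all genes. They were Ncaph of condensin at 0.99, Ndc80 of the kinetochore at 1.11 and Sgol1, the protector of cohesin, at 1.36. No gene of either list was lower at that level, against 2.47% of all genes. Rpa3, a subunit of the single-strand binding complex, was higher in all 4 Cd151-/- mice than in any control (0.37). It is named because its groups did not overlap, as for 0.925% of all genes upward.

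The lists of other genes that decide whether a cell enters the cycle had medians closer to 0. The E cyclins were counted with replication, where Ccne1 differed by 0.71 and Ccne2, detected on 1 array, by 0.41. The 6 tested G1 cyclins and kinases had a median of -0.01 (-0.09 to 0.16), with 2 of them higher. The 6 tested CDK inhibitors had a median of -0.02 (-0.45 to 0.67), also with 2 higher. One inhibitor, Cdkn2a, was detected in none of the Cd151+/+ mice and in all 4 Cd151-/- mice, at 4.65 to 5.20 and 5.32 to 5.83. With the lowest detected signal of each control array as the limit, that is at least 1.15-fold higher. The difference of 0.67, which includes the undetected signals, had an unadjusted p of 0.009 (adjusted p = 0.918). At an unadjusted p under 0.05, 1.90% of all genes were higher. The groups did not overlap, as for 0.925% of all genes upward. Cdkn2a entered the test only through Cd151-/- mice. The 13 tested Rb and E2F family genes had a median of 0.16 (-0.20 to 1.03), with 9 higher. Of these Mybl2, which with the MuvB complex turns on mitotic genes, differed by 1.03 (unadjusted p = 0.010, adjusted p = 0.918).

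Markers of the cell types in the isolate varied between the same mice. All 6 tested proximal tubule markers had a higher mean in Cd151-/- mice, where 49.7% of all tested genes did. Their median difference was 0.55 log2, and none reached an unadjusted p of 0.05. Their summed signal ranged from 15660 to 44124 in Cd151+/+ mice and from 28676 to 51513 in Cd151-/- mice. Their median deviation was 1.06, 0.15, 0.17 and 1.12 in Cd151-/- mice 1 to 4. That of the mitosis members was 1.82, -0.55, 1.67 and 1.24 in the same mice. The 4 tested erythroid markers were lower, with a median difference of -0.63. At an unadjusted p under 0.05, 2 of the 4 were lower, against 2.47% of all tested genes. They were Alas2 of heme synthesis (-2.57) and the globin Hba-a1 (-0.69). The median deviations of the 4 markers, -0.98, 0.28, -0.67 and -1.31 in Cd151-/- mice 1 to 4, set mouse 2 apart from the other 3. Their summed signal was 38095 to 50124 in Cd151+/+ mice and 17920 to 37501 in Cd151-/- mice, and Epb4.2 was detected on no array. The part of either cell type in the result on the members was not tested.

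Markers of the other cell types had medians near or below 0. Of the 5 tested leukocyte markers 2 were higher (median -0.0025), their summed signals overlapped (1141 to 1539 in Cd151+/+ mice and 1009 to 1547 in Cd151-/- mice), and Ptprc, Emr1 and Cd79a were detected on no array. The median difference was -0.35 for 7 glomerular endothelial markers, -0.35 for 5 mesangial and smooth muscle markers, -0.25 for 4 podocyte markers and -0.22 for 5 markers of the loop and distal nephron. The mesangial list ran both ways, with Acta2 of smooth muscle actin at 0.71 (unadjusted p = 0.0185, adjusted p = 0.918) and the growth factor receptor Pdgfrb at -0.74 (unadjusted p = 0.040, adjusted p = 0.918). The summed signals of all 4 lists overlapped between the genotypes.

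**Figure D5:**
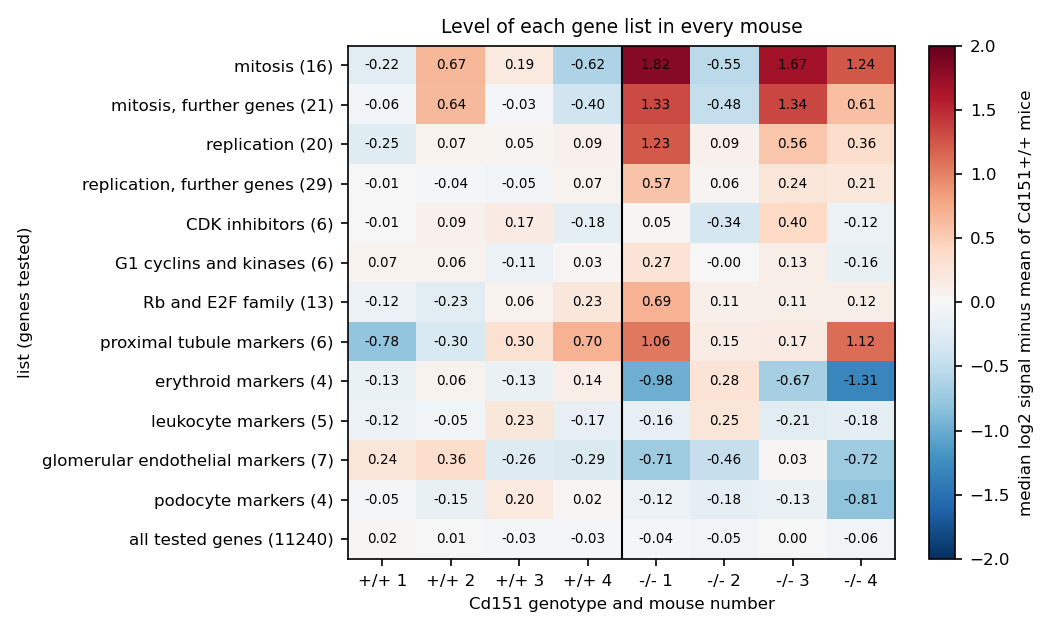
Median over each gene list of the log2 signal minus the mean of the 4 Cd151+/+ mice, by mouse, with the number of tested genes in brackets and red for higher and blue for lower. Both mitosis lists are red in Cd151-/- mice 1, 3 and 4 and blue in mouse 2 (-0.55 and -0.48), while all tested genes lie between -0.06 and 0.02.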

How the data were processed

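Glomerular RNA of 8 mice, grouped by the genotype in the labels, was hybridised to MouseRef-8 v1.1 arrays of Illumina. The authors deposited a signal intensity, the mean brightness of a probe's beads without background correction or normalisation, and a detection p-value for each of 25697 probes. In limma 3.58.1 (R 4.3.3), these p-values gave the background of each array. Signals were corrected with neqc (offset 16), quantile-normalised and fitted by genotype with lmFit and eBayes. A probe was tested if its detection p-value was at most 0.05 on any array, and p was adjusted by Benjamini-Hochberg over every tested probe. The brightest tested probe stood for its gene. Exact permutation tests, two-sided, used the 70 divisions of the mice. SAM, named in the methods, was not run. The limma step was tested on simulated data. The number of arrays limits the precision. Some single marker genes are not reported here.

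The members and lists were chosen with earlier results of these data known. Values are given for Top2a, Cdc2a, Ccnb1, Cdc20, Pcna, Mcm2 and Rrm2 (Mki67, also chosen, had no row), for the 5 members of each subgroup with the largest fold change among those detected on all 4 arrays of a genotype, and for members whose groups did not overlap. Other probes of a named gene are mentioned where their sign differs or their p is lower. Further genes are named at an unadjusted p under 0.05. As alternatives, normexp was left out, or arrays were normalised by cubic spline (15 quantiles) or by their 75th percentile, or the offset was set to 50. The detection filter was dropped or made stricter. The fit was repeated with a block for mouse number or for background set, with trended robust variance, with array weights, with the mean of a gene's probes, without Ezh2, Uhrf1 and Ccna2, by an equal-variance test, and without each mouse. Promoters came from RefSeq (GRCm38.p6), matched by symbol or by a synonym of 1 gene.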

Additional observations from a re-analysis of the deposited data

Results flagged for a closer look

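Of 76 groups of 4 mice examined, 11 had 1 mouse far from the other 3 by Dixon's criterion, which chance gives in about 1 of 20 groups. Cd151-/- mouse 2 was the low one for Rrm1 (8.83, the others at 9.64 to 9.69), Birc5 (7.88, the others at 10.40 to 10.92), Cdc20 (7.73, the others at 10.62 to 10.95), Cdca3 (7.83, the others at 9.97 to 10.34), Cdca8 (5.77, the others at 8.07 to 8.29) and Kif11 (5.93, the others at 8.24 to 8.52). Cd151-/- mouse 1 was the high one for Ccne2 (6.01, the others at 4.93 to 4.97), Tyms (9.68, the others at 8.37 to 8.58) and Nusap1 (7.48, the others at 5.16 to 5.19). Among Cd151+/+ mice, mouse 3 was high for Nusap1 (5.55, the others at 4.85 to 4.89), and mouse 1 was low for the median deviation of the replication members (-0.25, the others at 0.05 to 0.09). Ccne2 and Nusap1 were detected on few arrays.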

How the results depend on the processing

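The count of members higher at an unadjusted p under 0.05, 10 in the fit reported, was 4 with the mouse number as a replicate block (all genes 1.55%), 3 in an equal-variance test (all genes 1.69%) and 19 with array weights (all genes 15.4%). With the mean of a gene's probes 2 members had groups that did not overlap, in place of 1. Over the alternatives that keep every mouse, 0.569% to 0.960% of all genes were so separated upward. Leaving out each mouse in turn, the first count ranged from 3 to 24, the number of members without overlap from 1 to 22, the median fold change from 0.73 to 1.60 for mitosis and from 0.41 to 0.72 for replication, and the counts past adjustment and of members lower stayed at 0. Without Cd151+/+ mouse 2, 3 or 4 the number without overlap was 2, 4 or 3, against 1.53%, 2.47% or 2.86% of all genes. Without Cd151-/- mouse 2 the differences of Birc5, Cdc20, Kif11, Rrm2 and Top2a were 1.78, 1.79, 1.74, 1.49 and 1.49. Ccnb1 was 0.73 without Cd151-/- mouse 1 and 0.54 without normexp, Mcm2 0.28 without Cd151-/- mouse 3 and Bub1b 0.65 without normexp. Over the other alternatives the median was 0.75 to 1.04 for mitosis and 0.38 to 0.80 for replication. Of 84 main results 80 stayed within the limits set, which check size and not direction. For a median the limit was the standard deviation among mice of a genotype, 0.86 for mitosis and 0.36 for replication. The 84 include the counts past adjustment, lower, and without overlap downward, which were 0 throughout. The 15 named members reversed in none of 299 values and passed adjustment in none, with a lowest adjusted p of 0.0885 (array weights). Mice with the same number did not deviate together (correlations of -0.58, -0.40, -0.53 and -0.01), and no Cd151+/+ mouse correlated best with its own number. Each same-number pair joins an array of lower and an array of higher background. These correlations therefore cannot show whether the numbers pair the mice. The cause of these changes was not tested. A quantity that 4 mice per genotype and the array background cannot resolve was not detectable here, which applies to the 14 members detected on no array.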
